A study of Homo sapiens with 6 samples.

Results

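The exocyst is the vesicle-tethering complex of the plasma membrane, and its subunits are encoded in human cells by EXOC1, EXOC2, EXOC3, EXOC4, EXOC5, EXOC6, EXOC6B, EXOC7 and EXOC8. These 9 genes were taken by symbol from the 60623 genes of the deposited table, and all 9 passed the filter on low counts that left 14928 genes. The set was chosen by a reading of earlier results from these same libraries, in which the CCS1477 against DMSO difference was known. The values of that difference are therefore given for the subunit genes as a description, and their p-values are not printed. Where a subunit gene is said to be past a threshold in the fit over all genes, that too is a description and not a test of the set. The study sequenced poly-A RNA of the established cell line DU145, from a human prostate cancer, with a genotype labelled wild type. The first group had 3 libraries of cells kept for 24 h with 1 µM CCS1477 (inobrodib), which blocks the bromodomain of the histone acetyltransferases p300 and CBP. The other group had 3 libraries of cells given DMSO, the solvent, for the same time. The labels do not say whether the libraries came from separate cultures, so SDs and p-values cover the spread between these libraries, which may be technical.

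The complex holds an arriving secretory vesicle at the plasma membrane until SNARE proteins fuse the membranes. Its subunits pack as 2 modules, one of EXOC1 to EXOC4 and one of EXOC5 to EXOC8, with EXOC6 and EXOC6B as alternative copies of the same subunit (Sec15 in yeast). EXOC1 and EXOC7 bind the lipid PI(4,5)P2 at the plasma membrane, EXOC6 binds Rab GTPases on the vesicle, and EXOC2 and EXOC8 bind the Ral GTPases. The complex is known for delivering membrane and receptors to growing surfaces, to cell junctions, to the base of cilia and to the invasive protrusions of tumour cells.

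Library totals ran from 8691382 to 9412867 counts with CCS1477 and from 8286880 to 11956734 counts in DMSO, and 3 counts, used as the detection floor, stood for at most 0.368 CPM, the count scaled to the size of the library. Such a floor covers counting error only. The epithelial markers KRT8, KRT18, EPCAM and CDH1 summed to between 1698 and 1807 TPM, the deposited unit that is also scaled by transcript length, with CCS1477 and between 1733 and 1890 TPM in DMSO. KRT8 and KRT18 made up most of that sum. CDH1, which encodes E-cadherin, went another way, with 33.7, 30.2 and 29.4 TPM with CCS1477, against 75.1, 79.5 and 49.3 TPM in DMSO, and its groups did not overlap (log2 fold change -1.17 ± 0.10 (SE), adjusted p = 1.64e-05, edgeR quasi-likelihood). EPCAM was also lower, with 196.6, 185.4 and 194.0 TPM with CCS1477, against 215.9, 262.4 and 203.5 TPM in DMSO, again without overlap. The part of these differences in the values of the exocyst genes was not tested. The prostate luminal markers KLK2, KLK3 and FOLH1 were listed at 0 in every library, although the labels give the tissue as prostate. Of the leukocyte markers, PTPRC and CD3E were listed at 0 in every library, while CD68 had between 30.5 and 37.6 TPM with CCS1477 and between 34.6 and 66.1 TPM in DMSO. Of the endothelial markers, PECAM1 was listed at 0 in every library and CDH5 had at most 0.43 TPM. The fibroblast markers COL1A1, COL1A2 and PDGFRB summed to between 4.34 and 5.50 TPM with CCS1477 and between 5.81 and 11.2 TPM in DMSO. All values are relative to the total RNA of a library, and fewer cells expressing a gene and less of its RNA per cell cannot be told apart.

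EXOC6, EXOC6B and EXOC3 stood furthest above DMSO with CCS1477, and EXOC4 had nearly equal means in both groups. All 9 log2 fold changes were above 0, from 0.01 for EXOC4 to 0.58 for EXOC6, with a median of 0.26, whereas the median of all 14928 genes tested was -0.003 and 49.6% of them were above 0. In the fit over all genes with edgeR's quasi-likelihood test, 3 of the 9 were past an adjusted p of 0.05 on the higher side, where 7.23% of all genes were, and 0 were on the lower side, where 10.7% of all genes were. The genes were chosen with this contrast known, so nothing is read from those shares. Over all genes, 1079 were higher and 1597 lower, or 1456 higher and 1361 lower with scaling by library size alone. Summed over the 9 genes, the level was 881.4, 837.1 and 828.6 CPM in CCS1477 libraries 1, 2 and 3, against 692.0, 766.5 and 663.5 CPM in DMSO libraries 1, 2 and 3. The 3 sums with CCS1477 lay above the 3 sums in DMSO.

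**Figure D1:**
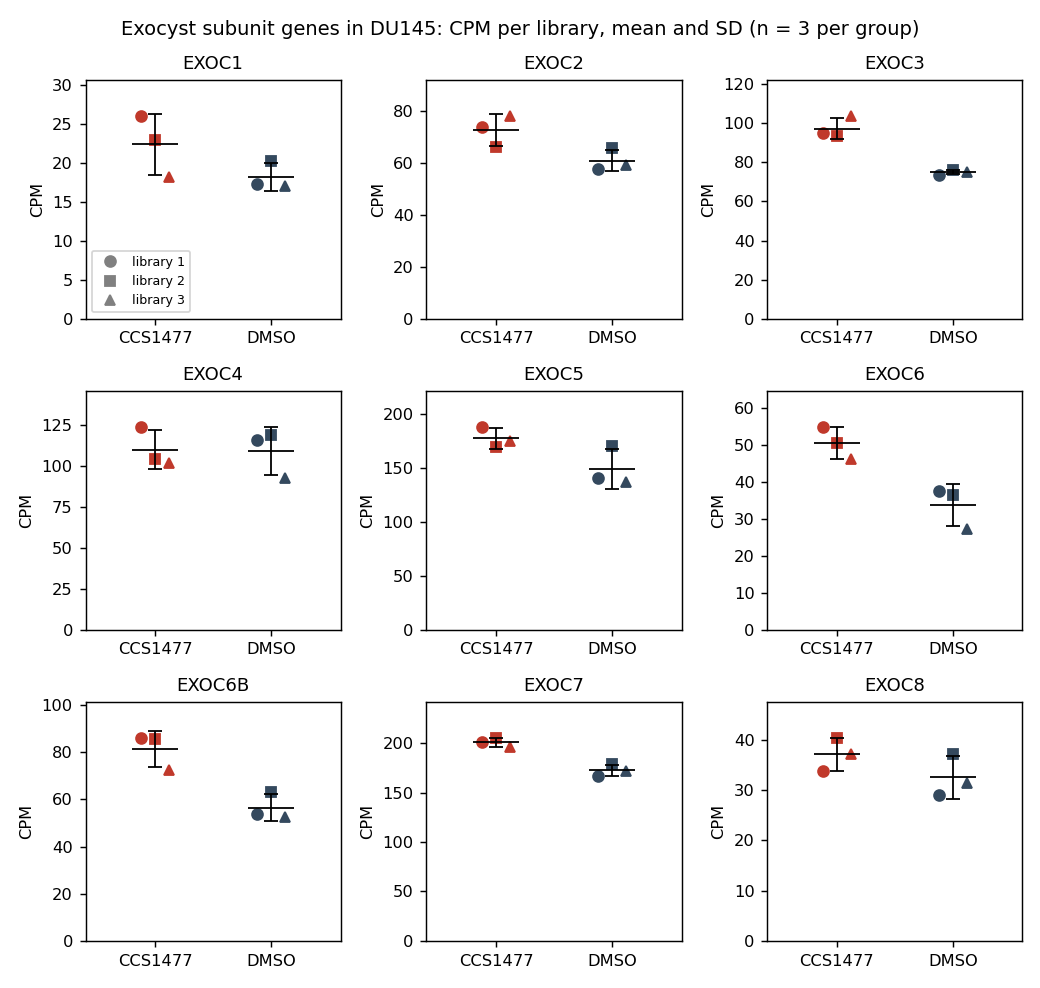
CPM of the 9 exocyst subunit genes (vertical axes from 0) in the CCS1477 and DMSO libraries, with circles, squares and triangles for libraries 1, 2 and 3, a bar for the mean and whiskers for the SD. In EXOC2, EXOC3, EXOC6, EXOC6B and EXOC7 the lowest CCS1477 library lay above the highest DMSO library, and in EXOC4 the ranges of the groups overlapped.

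EXOC6 and EXOC6B encode the subunit that reads the vesicle, through Rab GTPases such as RAB11 and RAB8. Positions below are those of the deposited table, whose build is not stated. EXOC6 (chromosome 10, 92826831 to 93059493) had 54.8, 50.5 and 46.2 CPM in the CCS1477 libraries, against 37.4, 36.4 and 27.3 CPM in the DMSO libraries. The groups did not overlap, and DMSO library 3 was the lowest of the 6. The log2 fold change was 0.58 ± 0.13 (SE), a ratio of 1.49. EXOC6B (chromosome 2, 72175984 to 72826041) had 85.8, 85.6 and 72.6 CPM with CCS1477, against 53.7, 63.2 and 52.6 CPM in DMSO. Again every CCS1477 library was above every DMSO library, and the log2 fold change was 0.52 ± 0.11 (SE), a ratio of 1.44. EXOC6 was not past the threshold without CCS1477 library 1, and neither gene was past it on the deposited TPM scale.

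Both copies of this subunit thus stood higher by a similar factor, and the balance between them differed little. Per transcript length, EXOC6B made up 45.5%, 40.6% and 43.6% of the pair in the CCS1477 libraries, against 46.1%, 36.7% and 50.6% in the DMSO libraries. The CCS1477 shares lay inside the range of the DMSO shares. The pair together reached 45.4, 55.9 and 42.5 TPM with CCS1477, against 30.1, 43.7 and 23.3 TPM in DMSO, where the lowest CCS1477 library lay below the highest DMSO library.

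EXOC3, the homologue of yeast Sec6, is a core subunit of the first module. It lies on chromosome 5 from 443175 to 471937 and had 95.0, 93.3 and 103.6 CPM with CCS1477, against 73.7, 75.9 and 75.3 CPM in DMSO. The DMSO libraries were close together, at 74.96 ± 1.17 CPM, while the CCS1477 libraries stood at 97.3 ± 5.54 CPM (SD, n = 3 each). The log2 fold change was 0.38 ± 0.09 (SE). It was not past the threshold without CCS1477 library 3, without DMSO library 1 or on the TPM scale.

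The promoters of EXOC3, EXOC6 and EXOC4 are printed here because they set EXOC3 and EXOC6, which stood higher, beside EXOC4, whose groups overlapped widely. Promoter sequence came from RefSeq (GRCh38.p14), which held 11 start sites for 8 of the 9 genes, with EXOC6B not among them. Each stretch covers up to 150 bases before an annotated start site, 5′ to 3′ on the gene's strand, ended before the first annotated UTR base. Capitals mark CGGAAG, the core of the motif bound by ETS-family factors, on either strand (CTTCCG when read on the other strand). The EXOC6 stretch printed is that before the start site at 92831108. The stretches before its start sites at 92826831 and 92848520 held 0 matches to CGGAAG and are not printed.
EXOC3, chr5:443026-443157, plus strand: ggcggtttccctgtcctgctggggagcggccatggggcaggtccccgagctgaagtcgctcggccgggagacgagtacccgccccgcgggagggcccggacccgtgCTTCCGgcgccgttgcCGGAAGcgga
EXOC6, chr10:92830958-92831107, plus strand: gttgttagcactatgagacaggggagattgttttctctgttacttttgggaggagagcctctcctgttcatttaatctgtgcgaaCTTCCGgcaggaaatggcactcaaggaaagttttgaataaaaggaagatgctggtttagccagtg
EXOC4, chr7:133252928-133253072, plus strand: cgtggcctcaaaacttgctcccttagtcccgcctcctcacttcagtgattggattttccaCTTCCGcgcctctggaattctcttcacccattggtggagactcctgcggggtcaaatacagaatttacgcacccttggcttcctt

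CGGAAG was found in the 250 bases before at least 1 start site in 7 of the 8 genes, all but EXOC2, and in 7 of their 11 start sites. It was in 16.5% of all 35116 promoters of the table and in 25.1% of the 15397 promoters of genes tested here. These shares count start sites, and the share of genes with at least 1 such start site was not worked out. EXOC3 held it at 3 places, starting 44, 28 and 22 bases before the start site (the first and second are in the stretch above), EXOC6 at 65 bases before the second of its 3 start sites, and EXOC4 at 90 bases. The motif therefore stood before EXOC4, with a log2 fold change of 0.01, as well as before EXOC3 and EXOC6. GCGCANGC, from the NRF1 motif, was found at 5 places before EXOC8, of which a pair overlapped. It stood before 3 of the 11 start sites, with 16.7% of the promoters of tested genes holding it. GGGCGG (a GC box) stood before 6 of the 11 start sites, CCAAT before 2 and TATAAA before 0. The shares of the promoters of tested genes were 63.8%, 32.5% and 5.72%. Each motif was searched on both strands, and a match is a run of letters and not a measured binding site.

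EXOC1, EXOC2 and EXOC4 are the other subunits of the first module. EXOC2, the Sec5 homologue through which active Ral reaches the complex, lies on chromosome 6 from 485154 to 693139. It had 73.8, 66.0 and 77.8 CPM with CCS1477, against 57.6, 65.4 and 59.1 CPM in DMSO, so that the groups came within 1 CPM of each other but did not overlap. Its log2 fold change was 0.26 ± 0.10 (SE). EXOC1, the Sec3 homologue (chromosome 4, 55853648 to 55905086), had 26.03, 23.01 and 18.2 CPM with CCS1477, against 17.3, 20.3 and 17.1 CPM in DMSO, with overlapping groups and a log2 fold change of 0.30 ± 0.16 (SE).

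EXOC4, the Sec8 homologue, spans 813517 bases of chromosome 7 (133253073 to 134066589). It had 123.8, 104.4 and 102.2 CPM with CCS1477, against 116.1, 119.0 and 92.7 CPM in DMSO. The highest and the lowest value sat in CCS1477 library 1 and DMSO library 3, and the group means were 110.1 ± 11.9 CPM with CCS1477 and 109.3 ± 14.4 CPM in DMSO (SD, n = 3 each). Its log2 fold change was 0.01 ± 0.12 (SE), the lowest of the 9, and it was below 0 on both TPM scales, without CCS1477 library 1 and without DMSO library 3, down to -0.10.

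EXOC5, EXOC7 and EXOC8 complete the second module. EXOC5, the Sec10 homologue (chromosome 14, 57200507 to 57268905), had 187.3, 169.2 and 174.4 CPM with CCS1477, against 140.1, 170.3 and 136.3 CPM in DMSO. DMSO library 2 reached into the CCS1477 range, and the log2 fold change was 0.25 ± 0.10 (SE). On the TPM scale the groups of EXOC5 did not overlap, at 73.2, 81.9 and 79.9 TPM with CCS1477, against 59.5, 66.6 and 55.9 TPM in DMSO. EXOC7, the Exo70 homologue that anchors the complex in the membrane (chromosome 17, 76081016 to 76121576), had 201.1, 204.8 and 196.4 CPM with CCS1477, against 167.0, 178.6 and 171.9 CPM in DMSO. The groups did not overlap and the log2 fold change was 0.22 ± 0.08 (SE). EXOC8, the Exo84 homologue (chromosome 1, 231332753 to 231337852), had 33.8, 40.3 and 37.3 CPM with CCS1477, against 28.99, 37.3 and 31.4 CPM in DMSO, with overlapping groups and a log2 fold change of 0.19 ± 0.13 (SE).

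In 5 of the 9 genes the lowest CCS1477 library lay above the highest DMSO library in CPM, where 16.5% of all genes tested did so. EXOC2, EXOC3, EXOC6, EXOC6B and EXOC7 were these 5. Among all genes tested, EXOC6 and EXOC6B stood at the percentiles 93.4 and 92.1 of log2 fold change, EXOC3 at 86.5 and EXOC4 at 51.6. EXOC5 was past the threshold only without DMSO library 2, and EXOC7 only with scaling by library size alone.

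**Figure D2:**
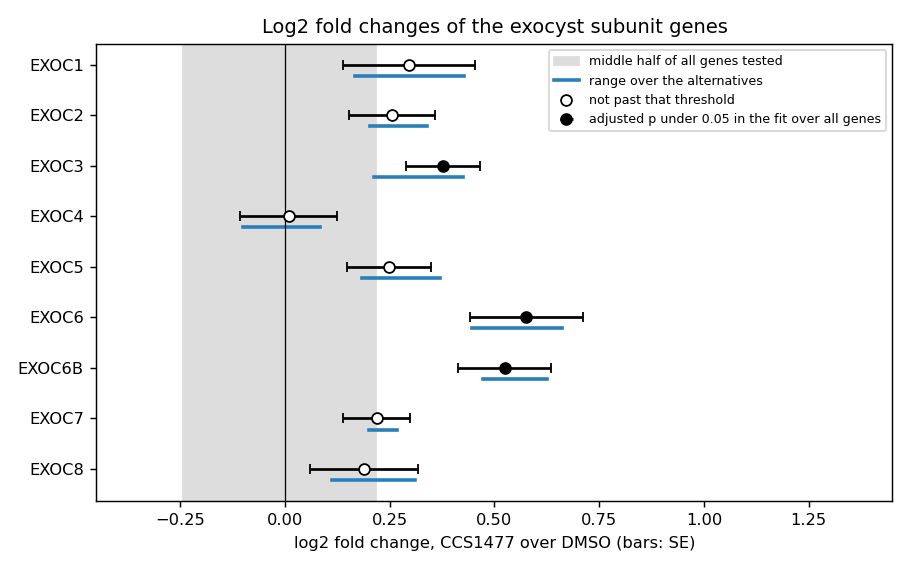
Log2 fold change of each exocyst subunit gene, CCS1477 over DMSO, with its SE, where filled circles were past an adjusted p of 0.05 in the fit over all genes. The grey band holds the range between the quartiles of all 14928 genes tested and the blue line under each gene its range over 16 other ways of processing, which crosses 0 for EXOC4 alone.

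Levels of the 9 genes were compared per transcript length, as TPM. With CCS1477 the order was EXOC5 at 78.3 ± 4.58, EXOC7 at 74.2 ± 2.93, EXOC3 at 62.2 ± 2.07 and EXOC4 at 41.6 ± 3.57 TPM (SD, n = 3), of which only EXOC5 and EXOC7 overlapped. EXOC6 at 27.3 ± 5.11, EXOC2 at 24.1 ± 2.58 and EXOC6B at 20.6 ± 2.11 TPM came next and overlapped in that order, before EXOC1 at 10.5 ± 3.09 and EXOC8 at 10.2 ± 0.844 TPM, which also overlapped. In DMSO the order was EXOC7 at 62.7 ± 7.21, EXOC5 at 60.7 ± 5.46, EXOC3 at 53.8 ± 6.43 and EXOC4 at 42.9 ± 9.68 TPM (SD, n = 3), and each of these overlapped its neighbour over the libraries. EXOC2 at 19.0 ± 1.62, EXOC6 at 18.5 ± 8.32 and EXOC6B at 13.9 ± 2.13 TPM followed below a gap and overlapped in turn, and EXOC1 at 9.30 ± 2.74 and EXOC8 at 8.65 ± 1.43 TPM were the lowest and did not differ beyond their spread. The proteins of the complex are known to assemble with 1 copy of each subunit, while the TPM of the highest gene in a library was 8.17 to 10.2 times that of the lowest with CCS1477 and 6.89 to 9.23 times in DMSO.

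EXOC5 to EXOC8, with EXOC6B, summed to 205.5, 222.1 and 204.3 TPM with CCS1477, against 156.9, 191.7 and 144.7 TPM in DMSO, and the groups did not overlap. EXOC1 to EXOC4 summed to 147.0, 133.0 and 135.4 TPM with CCS1477, against 134.5, 138.2 and 102.3 TPM in DMSO, and the groups overlapped. EXOC4 held 11.9% ± 0.816 of the TPM of the 9 genes with CCS1477 and 14.7% ± 1.94 in DMSO, and EXOC6B held 5.90% ± 0.476 with CCS1477 and 4.80% ± 0.0559 in DMSO (SD, n = 3 each). The difference between the modules was not tested.

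**Figure D3:**
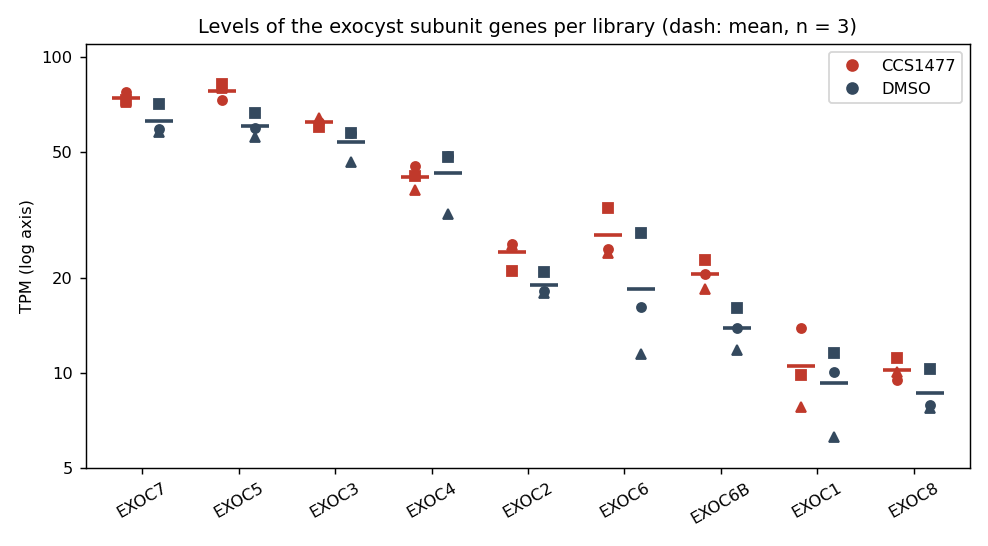
TPM of the exocyst subunit genes per library on a log axis, ordered by their mean in DMSO, with CCS1477 in red left of DMSO in dark blue and a dash at each mean. EXOC7, EXOC5, EXOC3 and EXOC4 had means of 41.6 TPM or more in both groups, and EXOC1 and EXOC8 had the lowest means.

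Gene-level tables hide splicing, for which EXOC7 is known from the switch between its epithelial and mesenchymal forms, but the ratio of count to TPM follows the mean length of the transcripts assigned to a gene. EXOC8, with 1 transcript in GENCODE 29, served as the unit within each library. For EXOC3 the ratio was 0.428, 0.430 and 0.438 with CCS1477, against 0.351, 0.365 and 0.398 in DMSO. It was the 1 gene among the other 8 whose groups did not overlap. The ratio was not taken for genes outside the exocyst, so the share over all genes is not known and nothing is read from that count. A higher ratio goes with longer assigned transcripts, and the log2 ratio of mean TPM of EXOC3 was 0.21, below the 0.38 of the counts. The difference in this ratio was not tested. For EXOC6 the ratio was 0.622, 0.421 and 0.522 with CCS1477, against 0.632, 0.363 and 0.582 in DMSO, and the lowest value fell in library 2 of both groups. The deposited TPM of EXOC6 ran from 24.0 to 33.2 with CCS1477 and from 11.5 to 27.7 in DMSO, so that the groups overlapped on that scale. For EXOC7 the ratio stayed within 1.11-fold over the 6 libraries, and no split between its 13 annotated coding transcripts can be read from these files.

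**Figure D4:**
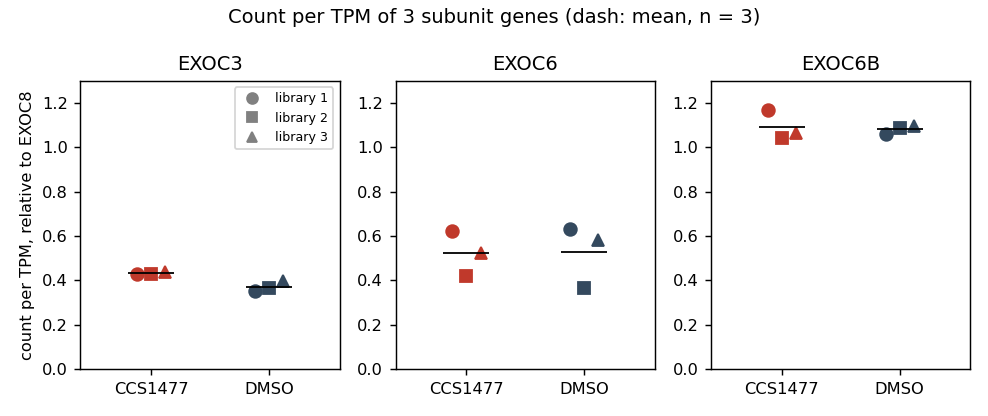
Count per TPM of EXOC3, EXOC6 and EXOC6B in each library, relative to EXOC8 (vertical axes from 0), which follows the mean length of the transcripts assigned to the gene, with a dash at the group mean. EXOC3 was higher in all 3 CCS1477 libraries, and EXOC6 varied by 1.74-fold with no split by group.

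Overlapping genes could add reads to some members, since the strandedness of the counting is not given in the sources used here. EXOC8 shares 749 bases with SPRTN, which is read from the other strand and had between 248 and 414 counts. EXOC3 shares 5814 bases with a gene listed as ENSG00000188242 and 1482 bases with SLC9A3 on the other strand, and the counts of these 2 genes were not whole numbers, while all 54 counts of the exocyst genes were whole. EXOC7 shares 2651 bases with ZACN on the other strand, which had between 679 and 842 counts. AP5M1 starts 18 bases beyond the start of EXOC5 and reads the other way, with 600, 591 and 609 counts with CCS1477, against 718, 784 and 411 in DMSO. EXOC3-AS1 lies 14 bases from EXOC3 on the other strand, with between 88 and 106 counts, and the genes overlapping EXOC1 and EXOC2 had at most 9 counts. EXOC4, EXOC6 and EXOC6B had no such neighbour with a count, and the pseudogenes EXOC5P1 and EXOC7P1 had at most 2 counts in a library. The part of these neighbours in the values above was not tested.

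By likeness of profile, the nearest of 11937 genes with at least 5 CPM was sought for EXOC6, which had the largest log2 fold change, and for EXOC5, which had the highest mean TPM. Likeness was the root mean square difference of log2 CPM over the 6 libraries after each gene's mean was subtracted. ANKRD26, MAP1B and ZYG11B were nearest to EXOC6, at 0.039, 0.052 and 0.052. SRGAP2B, ODF2L and COPS4 were nearest to EXOC5, at 0.0098, 0.016 and 0.029. These are the smallest distances among 11937 genes, and the distance that counting noise alone would give was not worked out. SRGAP2B has near-identical copies, so its count is uncertain.

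Genes related to the exocyst were read from 10 lists of 78 genes. The lists hold recruiters and partners of the exocyst, its paralogs and 24 genes of other tethering complexes. Of the 78 genes, 73 were tested. Of these, 10 (13.7%) were higher and 3 (4.11%) lower with CCS1477, against 7.23% and 10.7% of all genes, and their median log2 fold change was 0.09, below the 0.26 of the subunits. The number of higher genes was 6 without CCS1477 library 1, 4 without CCS1477 library 2, 2 without CCS1477 library 3 and 3 without DMSO library 1, and the number of lower genes was 1 without CCS1477 library 2 and 6 without DMSO library 3. Limma on log2(TPM + 1) called 5 higher and 1 lower. The subunits and the lists were chosen with earlier results of these data known, so nothing is read from the shares or the medians above.

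TNFAIP2, a homologue of EXOC3 also called M-Sec that helps to form thin bridges between cells, fell. It had 157.6, 183.3 and 180.6 CPM with CCS1477, against 307.4, 259.3 and 316.4 CPM in DMSO, and the groups were far apart. The log2 fold change was -0.76 ± 0.10 (SE, adjusted p = 0.000424, edgeR quasi-likelihood, Benjamini-Hochberg), and it was past the threshold in all 16 alternatives. EXOC3L1 and EXOC3L4, further relatives, had at most 5 and 7 counts in a library, and EXOC1L and EXOC3L2 had 0 counts in all 6, which allows up to 0.368 CPM.

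The list of 10 GTPases that bind the complex and the exchange factor Rabin8 had a median log2 fold change of 0.03. Of the GTPases, RALB was lower and 0 were higher, and the 1 higher gene of the list was RAB3IP, which encodes Rabin8. RALB, like RALA a Ral protein that binds EXOC2 and EXOC8, fell to 51.1, 50.4 and 54.5 CPM with CCS1477, against 63.9, 75.9 and 77.4 CPM in DMSO. Its log2 fold change was -0.48 ± 0.11 (SE, adjusted p = 0.00939, edgeR quasi-likelihood, Benjamini-Hochberg), and the call ended without CCS1477 library 2 and on both TPM scales, with adjusted p up to 0.0938. Its relative RALA had a log2 fold change of 0.12 ± 0.12 and did not pass, and the difference between RALB and RALA was not tested. RAB3IP, whose protein activates RAB8 and binds EXOC6, rose to 75.5 ± 1.81 CPM with CCS1477, against 58.2 ± 5.68 CPM in DMSO (SD, n = 3 each). Its adjusted p was 0.0238 in the same edgeR quasi-likelihood test and was above 0.05 without DMSO library 1 or any 1 CCS1477 library, with at most 0.117 over all alternatives. ARF6, CDC42, RAB10 and RAB11A were not past the threshold, at 0.03, 0.02, 0.08 and -0.11 on the log2 scale.

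In the list of Ral regulators and partners, 3 of 10 were higher and 0 lower, with a median log2 fold change of 0.22. RALGAPA1, a catalytic subunit of the GTPase-activating complex that turns Ral off, had 202.4, 182.5 and 175.5 CPM with CCS1477, against 111.6, 122.3 and 92.2 CPM in DMSO. Its log2 fold change was 0.78 ± 0.11 (SE, adjusted p = 0.000636, edgeR quasi-likelihood, Benjamini-Hochberg), and only the TPM scales left it above 0.05, at up to 0.0541. RGL3 and RALGPS1, which encode Ral exchange factors, rose at 0.66 and 0.44 on the log2 scale (adjusted p = 0.00926 and 0.0357 in the same edgeR test). RGL3 lost its call without CCS1477 library 3 and on the TPM scales, and RALGPS1 in 9 of 16 alternatives, among them each TPM scale and without any 1 library but DMSO library 2. The 3 that rose hold an inhibitor and a pair of activators of Ral.

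PIP5K1B, a kinase that makes the lipid to which EXOC1 and EXOC7 bind, rose by 0.78 ± 0.18 on the log2 scale (SE, adjusted p = 0.0131, edgeR quasi-likelihood, Benjamini-Hochberg), at 13.8 ± 0.858 CPM with CCS1477 against 7.99 ± 1.61 CPM in DMSO (SD, n = 3 each). Its call ended without CCS1477 library 3 or DMSO library 1. In the list of SNAREs and their partners, 3 of 16 tested genes were higher and 1 lower, with a median of 0.07. STX1A and SNAP23, SNAREs of the plasma membrane, rose at 0.45 and 0.38, and STXBP5, which encodes the fusion inhibitor tomosyn, fell by 0.33 on the log2 scale. Their adjusted p values in the edgeR quasi-likelihood test were 0.0371, 0.0184 and 0.0493, and STXBP5 lost its call in 14 of 16 alternatives, STX1A in 6 and SNAP23 in 6. STX1A did not pass without any 1 library but DMSO library 3, and SNAP23 without CCS1477 library 2, CCS1477 library 3 or DMSO library 1. Among 8 polarity genes, PARD6A alone was past the threshold, at 14.7, 17.3 and 15.3 CPM with CCS1477 against 8.01, 8.89 and 9.21 CPM in DMSO, a log2 difference of 0.86 ± 0.16 (SE, adjusted p = 0.00349, edgeR quasi-likelihood, Benjamini-Hochberg), and it passed in all 16 alternatives.

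Other tethers of the secretory and endocytic routes were set beside the exocyst, namely the COG complex of the Golgi, GARP and EARP of endosome-derived vesicles, NRZ of the endoplasmic reticulum, and HOPS and CORVET of lysosomes and endosomes. Of their 24 genes, 1 was higher and 0 lower, 19 had a log2 fold change above 0 and the median was 0.15, against 0.26 for the subunits of the exocyst. VPS16, a core subunit of HOPS and CORVET, was the 1, at 0.49 ± 0.13 on the log2 scale (SE, adjusted p = 0.0208, edgeR quasi-likelihood, Benjamini-Hochberg), lost without CCS1477 library 2, CCS1477 library 3 or DMSO library 1 and on the TPM scales. The 8 COG genes ran from -0.02 to 0.34 and the 5 of GARP and EARP from -0.33 to 0.30. No test was made of the exocyst against these complexes. Its subunits were chosen with this contrast known, so nothing is read from the difference of the medians.

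**Figure D5:**
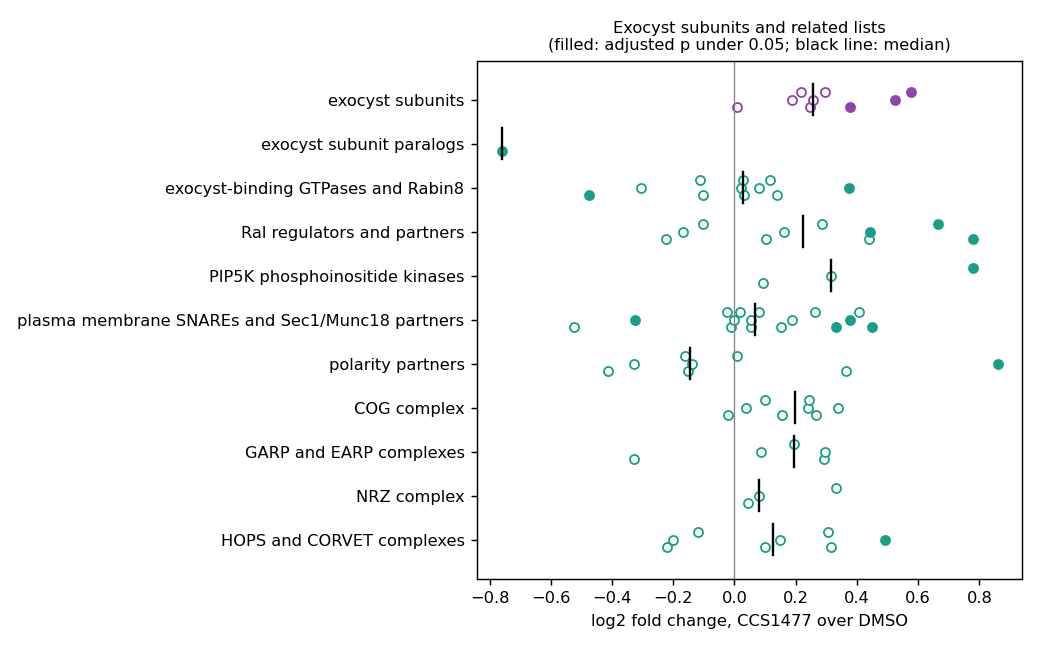
Log2 fold change, CCS1477 over DMSO, of each tested gene in the exocyst and in 10 related lists, with filled circles for genes past an adjusted p of 0.05 over all genes tested and a black line at each list's median. The 9 exocyst genes lie above 0, from 0.01 to 0.58, and the single tested paralog, TNFAIP2, lies at -0.76.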

How the data were processed

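The authors deposited estimated counts per gene, not normalized, and TPM, each with 1 column per library. Trimmomatic 0.39 is named, per the submitters' processing notes, with aligner, quantifier, build and strandedness not given in the sources used here. Between 10.2% and 10.7% of nonzero deposited counts were not whole. Counts were rounded and genes kept by filterByExpr (minimum count 10, minimum total 15). CCS1477 was compared with DMSO over all 6 libraries by the quasi-likelihood test of edgeR 4.0.16 with TMM factors (R 4.3.3) and Benjamini-Hochberg adjustment over all genes. Alternatives used DESeq2 1.42.0 and limma 3.58.1. SEs are the log2 fold change over the square root of F. CPM use TMM-scaled library sizes, and likeness used log2(CPM + 0.5). Plots used matplotlib 3.10.9. The procedure was tested on simulated data. The members and lists were chosen with earlier results of these data known. All 9 members are named, and from each other list up to 4 genes past the threshold by adjusted p plus up to 2 of opposite sign, except items not reported here; RALA, ARF6, CDC42, RAB10 and RAB11A were chosen after their values were seen. Coordinates are as the files give them, with promoters from RefSeq (GRCh38.p14); transcript numbers are from GENCODE 29, in which 4 of the 9 genes have the same start and end. Libraries of a group differed by more than counting noise (chi-square per degree of freedom 3.21 to 19.1). Whether the replicate numbers pair the libraries is not known, and the main fit did not use them as pairs.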

Additional observations from a re-analysis of the deposited data

How the results depend on the processing

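The 16 alternatives were 2 other scalings, DESeq2, limma-voom, limma on 2 TPM scales, 2 other filters, a threshold of 0.01, the replicate block and the omission of each of 6 libraries. Of the 144 values they gave for log2 fold changes of the exocyst genes, 127 kept direction and side of the threshold, 11 lost the threshold, 2 gained it and 4 changed sign. The 4 were EXOC4, at -0.020 on log2(TPM + 1), -0.019 on log2(TPM + 0.1), -0.08 without CCS1477 library 1 and -0.10 without DMSO library 3, and leaving out 1 library moved EXOC4 between -0.10 and 0.083. On log2(TPM + 1) and log2(TPM + 0.1), 0 exocyst genes were higher, with 293 and 280 of all genes higher and 427 and 410 lower, and 5 genes of the related lists were higher and 1 lower on each. At a threshold of 0.01, 1 exocyst gene, 3 genes of the related lists and 380 of all genes were higher, and 852 of all genes were lower. Leaving out 1 library gave 487 to 1311 genes higher and 925 to 1772 lower over all genes, 2 to 4 exocyst genes higher, and 2 to 15 higher and 1 to 6 lower in the related lists. The cause of these changes was not tested. EXOC6B held 61.7% of the CPM of its pair with CCS1477 and 62.7% in DMSO, in place of 43.2% and 44.5% of TPM.

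Deviations from the group mean had correlations of -0.09, -0.20 and 0.01 between libraries with the same number. Between libraries with different numbers they ran from -0.21 to 0.29. With 3 libraries a group, these values cannot settle whether the numbers pair the libraries. With the replicate block, 3 exocyst genes and 799 of all genes were higher, 1306 of all genes were lower, and 8 genes of the related lists were higher. With 3 libraries a group, the differences of EXOC1, EXOC4, EXOC5 and EXOC8 lay within ranges of CPM that overlapped.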
